A study of Caenorhabditis elegans with 80 samples.

Results

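The transcriptome of wild-type Caenorhabditis elegans at day 11 was compared with that at day 6, using 12 of the 80 RNA-seq libraries of a series on ageing and daf-16. The libraries were chosen by strain, age and set from their labels, with 6 libraries at day 11 and 6 at day 6, both from the time-course set. All came from whole hermaphrodites of the standard laboratory strain N2, grown at 20 °C on nematode growth medium with E. coli OP50-1 and 200 ug per mL of streptomycin. FUDR, which blocks DNA synthesis and keeps progeny from developing, was present in both groups, and the young adults were moved to fresh plates every other day. The remaining 68 libraries were N2 at days 8, 14 and 18, with 6 libraries each, a second N2 set at day 6 with 30 libraries, and the daf-16(mu86) strain CF1038 at day 6 with 20 libraries. The labels do not say whether the libraries of an age came from separate cultures, so every p-value below measures the spread between libraries, which may be technical.

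Adult worms are made of a fixed number of somatic cells that are not replaced, while the germline keeps dividing for part of adult life. The intestine digests bacteria, stores fat, makes yolk and secretes lysozymes and other defence proteins. The hypodermis lays down the collagen cuticle at each moult and keeps adding some collagens in the adult. Insulin signalling through the receptor DAF-2 holds the transcription factor DAF-16 out of the nucleus, and its targets include defence and stress genes that extend lifespan when DAF-16 is active.

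Each library held 35900694 to 40961247 counts at day 11 and 35692868 to 41001060 counts at day 6, and 19338 to 19774 genes were detected at day 11, against 19226 to 19908 at day 6. Ribosomal RNA took 0.135 to 0.227% of the counts at day 11 and 0.142 to 1.00% at day 6. In a principal component analysis of the 12 libraries, the first component held 52.3% of the variance and parted the ages, with day 11 libraries at 34.3 to 57.7 and day 6 libraries at -49.2 to -39.5. The second component, with 11.7%, divided the day 11 libraries among themselves. Day 11 libraries 1 and 2 lay at 32.3 and 35.7, library 3 at -1.37 and libraries 4 to 6 at -34.8 to -21.5. The day 6 libraries also spread along it, from -18.2 in library 3 to 25.1 in library 6. The counts below were therefore also made from libraries 1 to 3 of each age alone and from libraries 4 to 6 alone, and these values stand beside the results they change.

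Of 16710 genes tested, 7338 (43.9%) passed an adjusted p under 0.05 in edgeR's quasi-likelihood test. These were 4020 genes higher at day 11 (24.1% of those tested) and 3318 lower (19.9%), and these shares are the background for every gene group below. Levels are given as CPM, which set a gene's count against the scaled total of its library. The median log2 fold change over all tested genes was 0.03, and the median absolute log2 fold change of the called genes was 0.69. Large changes were more often rises. At 2-fold or more, 1459 called genes were higher (8.73% of those tested) and 754 lower (4.51%), and at 4-fold or more the counts were 322 and 146. In contrast, 1207 of the rises and 1823 of the falls were under 1.5-fold. The libraries of the ages did not overlap for 4887 genes (29.2%), 2464 higher (14.7%) and 2423 lower (14.5%). Only 549 of the 1459 genes that rose at least 2-fold, and 411 of the 754 that fell at least 2-fold, carry a standard gene symbol of letters, a hyphen and a number, against 9071 of all 16710 tested genes. With libraries 4 to 6 of each age alone, 4557 genes were called, 2562 higher (15.3% of those tested) and 1995 lower (12%). In libraries 1 to 3 the shares were 24.7% and 23.5%. When the 30 libraries of the second day 6 set took the place of the 6 time-course libraries at day 6, they were 26.5% and 28.1%.

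By fold, the rises among called genes with a standard symbol that averaged 10 CPM or more at day 11 were led by spp-9, lact-6, col-183, spp-12, dod-3, asm-3, dhs-26, thn-1 and lys-7, in that order. They include saposin-like, thaumatin-like and lysozyme genes of defence, a collagen gene, a sphingomyelinase gene and a dehydrogenase gene. The gene lact-6, for a protein with a lactamase domain, had 13.4 to 20.6 CPM at day 11 (median 16.7), against 0.173 to 0.422 CPM at day 6 (median 0.305) (log2 fold change 5.77 ± 0.467 (SE), adjusted p = 2.25e-10). The largest gains in CPM were those of vit-5, lys-7, asp-6, srlf-7, eef-1A.1 and col-143. The largest losses in CPM were those of C17F4.7, rrn-3.1, vit-4, col-140, COX1 and vit-3, and C17F4.7 had 1346 to 1855 CPM at day 11 (median 1699), against 3247 to 4018 CPM at day 6 (median 3636). In these bulk libraries of whole worms, fewer cells of a type and less RNA per cell cannot be told apart. The gene lys-7 (chromosome V, 3481432 to 3482600, WBcel235), which encodes an antimicrobial lysozyme and is a known DAF-16 target, had 3950.2 to 8008 CPM at day 11 (median 5916), against 427 to 705 CPM at day 6 (median 548). Every day 11 library lay above every day 6 library (log2 fold change 3.43 ± 0.272 (SE), adjusted p = 1.56e-10). The thaumatin-like gene thn-2 (chromosome IV, 12383170 to 12383974) had 699 to 897 CPM at day 11 (median 784), against 55.8 to 143 CPM at day 6 (median 79.5), again without overlap (log2 fold change 3.15 ± 0.252 (SE), adjusted p = 1.93e-10). Its relative thn-1 had 131 to 252 CPM at day 11 (median 153), against 13.4 to 20.2 CPM at day 6 (median 16.08), with a log2 fold change of 3.43.

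**Figure D1:**
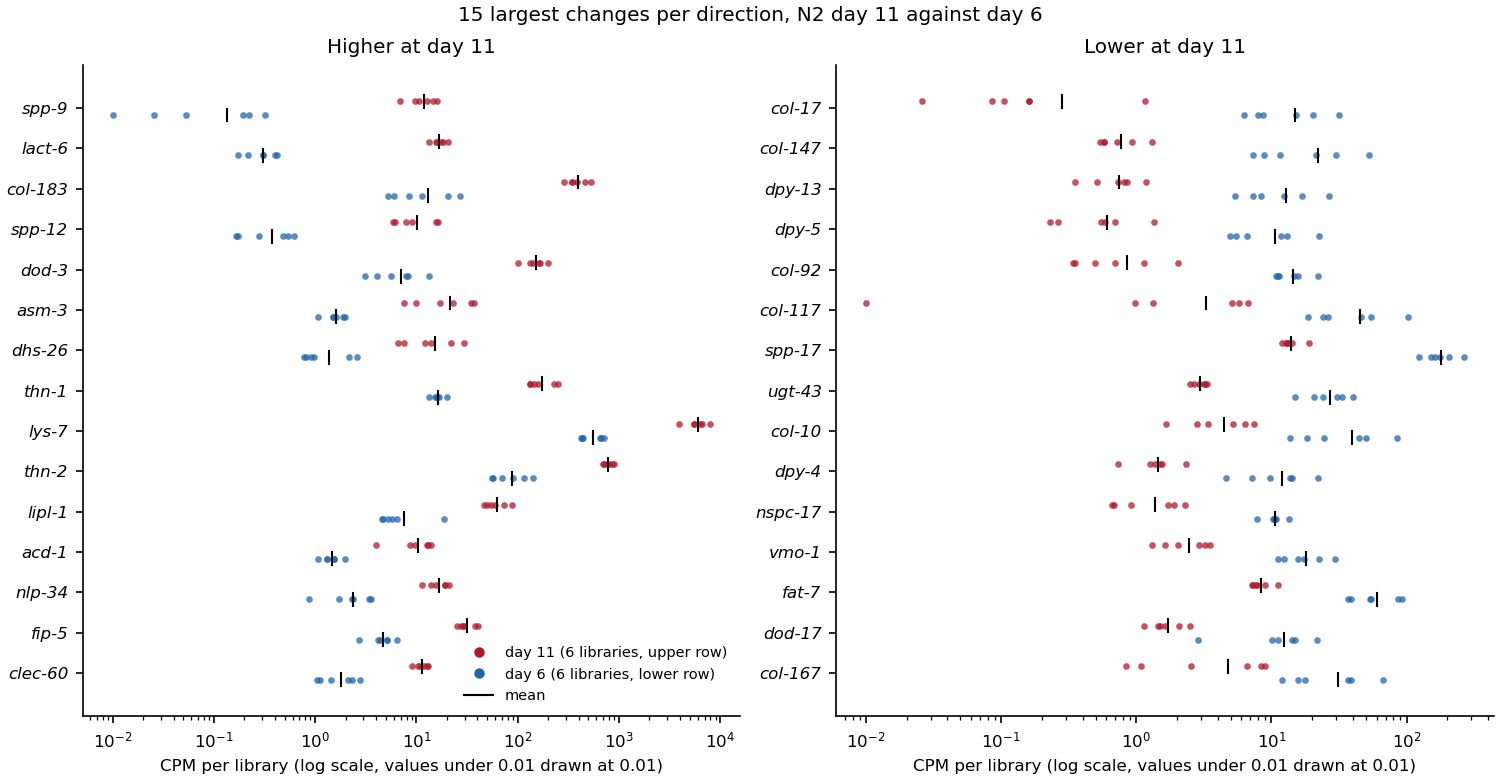
CPM (log axis) in each library for the 15 genes per direction with the largest log2 fold change under the naming rule. For each gene the upper row of points is day 11, the lower row is day 6 and the black tick is the mean. Values under 0.01 are drawn at 0.01. The libraries of the ages do not overlap for any of these genes, an outcome that the naming rule favours. Over all tested genes they do not overlap for 29.2%.

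Among lysozymes and saposins, which lyse bacteria or permeabilise membranes, 15 of 37 tested genes rose and 6 fell, with a median log2 fold change of 0.27. The largest fold rise of all named genes was that of spp-9, a saposin-like gene that was nearly undetected at day 6. It had 6.88 to 16.08 CPM at day 11 (median 11.6), against 0 to 0.317 CPM at day 6 (median 0.124) (log2 fold change 6.45 ± 0.758 (SE), adjusted p = 1.76e-07). The saposin-like gene spp-12 had 5.9 to 16.4 CPM at day 11 (median 8.5), against 0.167 to 0.62 CPM at day 6 (median 0.379), and spp-31 rose by less (log2 fold change 1.54). In the opposite direction, spp-17 fell to 12 to 19.1 CPM at day 11 (median 13.1), against 123.3 to 266 CPM at day 6 (median 169) (log2 fold change -3.68 ± 0.458 (SE), adjusted p = 3.97e-07). The summed level of the 47 genes was 8334 to 15276 CPM at day 11 (median 11690), against 4369.8 to 6129 CPM at day 6 (median 5059), and the single gene lys-7 averaged 5979 ± 1349 CPM at day 11 and 556 ± 135 CPM at day 6. Library 3 was the lowest and library 6 the highest of day 11 in that sum, and all 6 lay above the day 6 libraries.

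Small antimicrobial peptides of the cnc, fip, fipr, abf and nlp families, most of them made in the hypodermis or intestine after infection, were the next group. Of 63 such genes 36 were tested, 21 rose and 3 fell, and the median was 0.76. The defensin-like gene abf-2 had 19.3 to 31.8 CPM at day 11 (median 24.9), against 2.98 to 6.03 CPM at day 6 (median 4.28) (log2 fold change 2.54 ± 0.183 (SE), adjusted p = 1.34e-11). The epidermal peptide gene nlp-29, a standard reporter of fungal infection and wounding, had 48.2 to 52.1 CPM at day 11 (median 49.6), against 12.5 to 17.4 CPM at day 6 (median 14.2), and no library overlapped. The fungus-induced gene fip-5 and the peptide gene nlp-34 had log2 fold changes of 2.76 and 2.81. Another peptide gene of that cluster, nlp-27, named after its values were seen, had 80.6 to 109 CPM at day 11 (median 103), against 21.6 to 48.5 CPM at day 6 (median 40.8). Against the second day 6 set, 17 of 42 rose and 10 fell, and the median was -0.12.

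Genes induced by pathogens also rose more often than they fell. Of 47 tested infection response genes, from the irg, pals and related families, 21 rose and 3 fell (median 0.47). For example, irg-1, which responds to Pseudomonas, had 16.3 to 21.9 CPM at day 11 (median 18.7), against 6.84 to 8.73 CPM at day 6 (median 7.35). The pals-26 gene, of a family tied to the response to intracellular pathogens, had 5.08 to 9.53 CPM at day 11 (median 7.02), against 2.29 to 3.05 CPM at day 6 (median 2.67). The summed level of this list was 1328 to 1682 CPM at day 11 (median 1433), against 1104 to 1879 CPM at day 6 (median 1482), and the libraries of the ages overlapped. Of 34 thaumatin-like, chitinase-like and CUB-like genes, 13 rose and 5 fell (median 0.45), and in libraries 4 to 6 these counts were 6 and 3 of 33. C-type lectins, many of which respond to bacteria, were evenly divided, with 30 of 151 tested genes higher and 30 lower. Single members moved far, with clec-60 at a log2 fold change of 2.64 and clec-57 at -2.42.

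**Figure D2:**
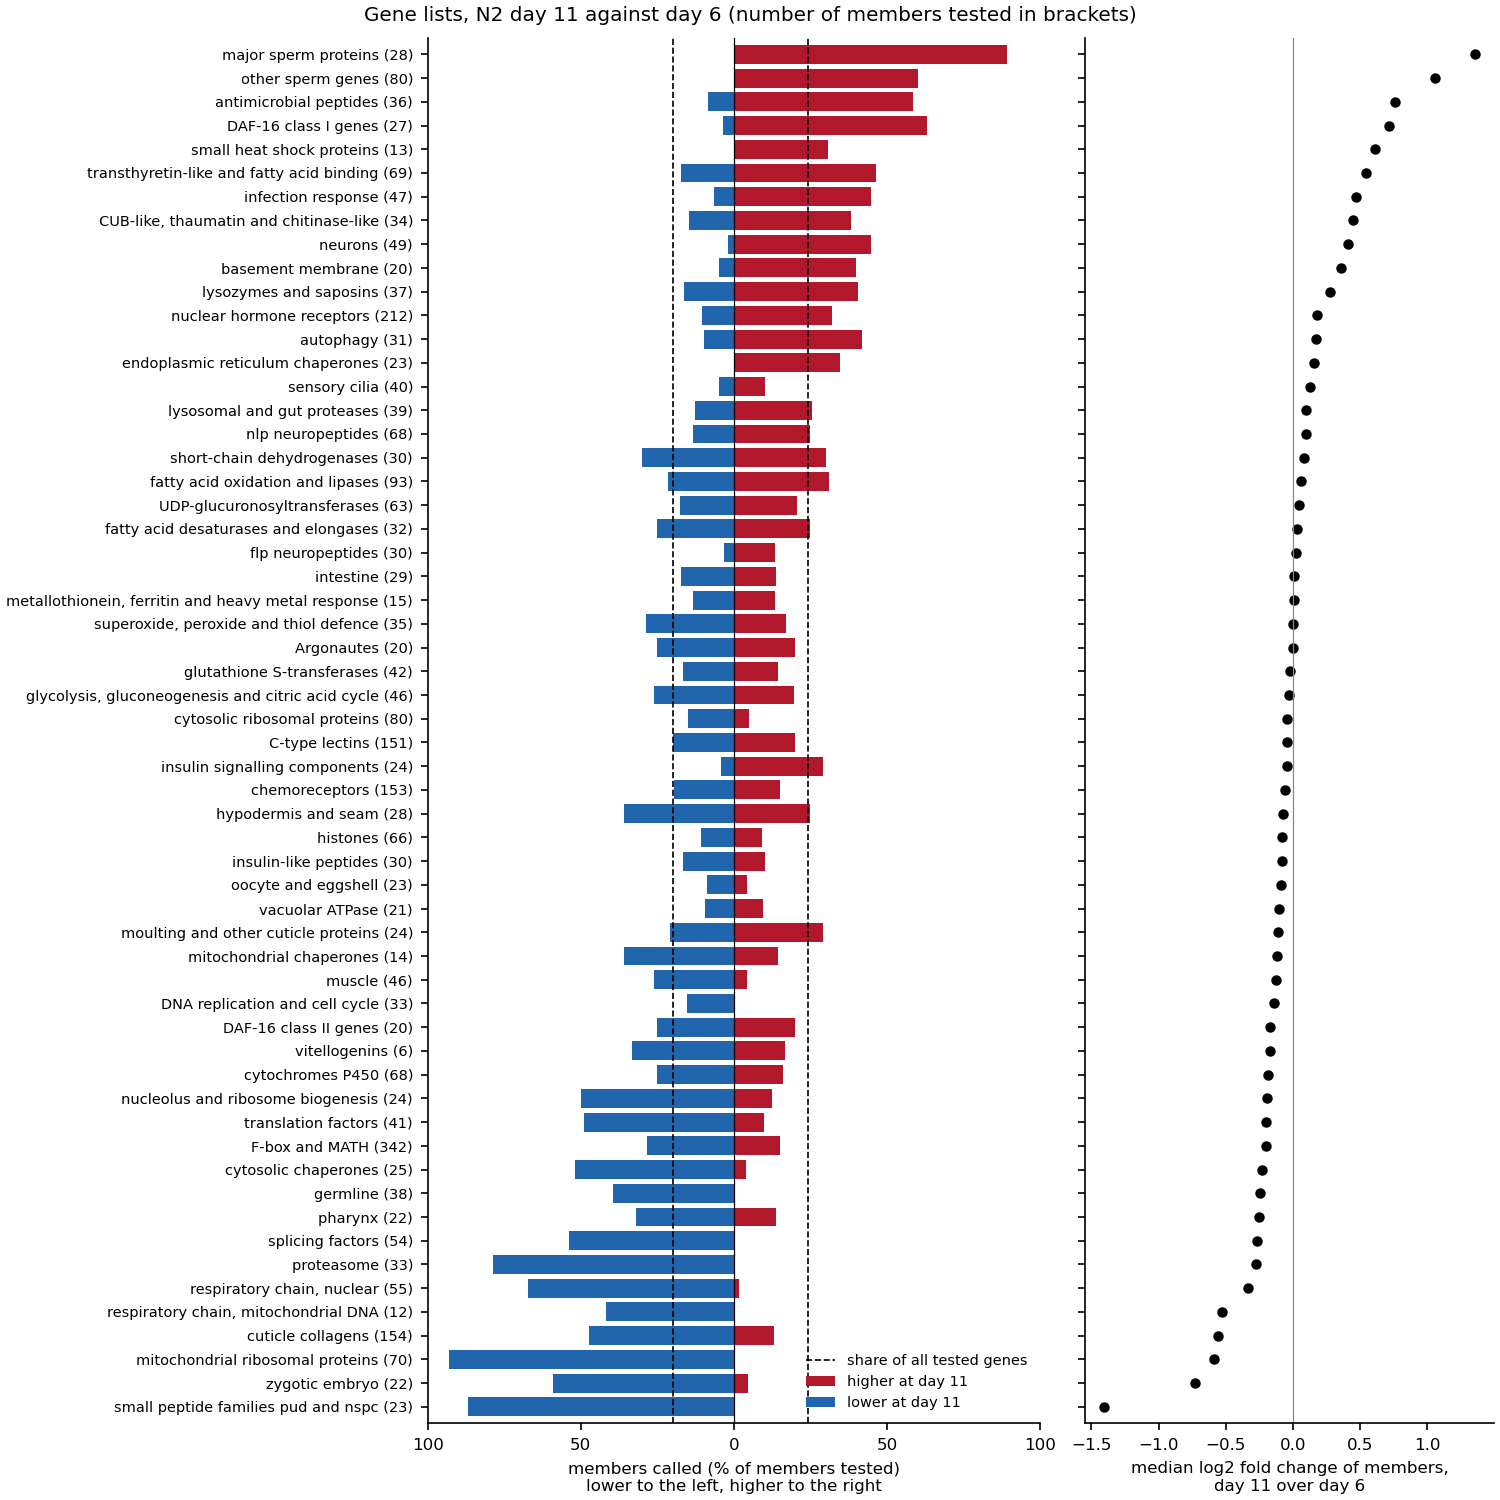
Left, share of the tested members of each of 58 gene lists that were called higher (red, to the right) or lower (blue, to the left) at day 11 than at day 6, with dashed lines at the shares over all tested genes, 24.1% higher and 19.9% lower. Right, the median log2 fold change of the tested members, from 1.36 for major sperm proteins to -1.41 for the pud and nspc peptides.

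Genes known to be activated by DAF-16 (class I) were mostly higher at day 11. Of 27 tested, 17 rose and 1 fell, with a median log2 fold change of 0.72. Their summed level was 8159 to 11849 CPM at day 11 (median 10216), against 3193 to 4476 CPM at day 6 (median 3442). The sum averaged 10170 CPM at day 11 and 3626 CPM at day 6. The gain of the single gene lys-7, whose means are given above, made up most of that rise. The gene dod-3 (chromosome V, 2730622 to 2731098), whose name records that it lies downstream of DAF-16, had 102 to 201 CPM at day 11 (median 152), against 3.14 to 13.4 CPM at day 6 (median 6.74) (log2 fold change 4.41 ± 0.327 (SE), adjusted p = 6.68e-11). The intestinal ferritin gene ftn-1, which stores iron, had 21.4 to 46.8 CPM at day 11 (median 40.4), against 4.47 to 18.3 CPM at day 6 (median 6.95) (log2 fold change 2.04). The steroid dehydrogenase gene stdh-1 rose by 0.73 on the log2 scale. The metallothionein gene mtl-1 had 70.1 to 128 CPM at day 11 (median 94.8), against 14.7 to 84.1 CPM at day 6 (median 25.2), so that its day 6 libraries reached into the day 11 range. Further members were named after their values were seen. The catalase genes ctl-1 and ctl-2, near-identical neighbours whose reads RSEM may split, rose by 0.88 and 0.72, and icl-1, the bifunctional enzyme of the glyoxylate cycle, rose by 1.06 on the log2 scale. Against the second day 6 set, 9 of 28 rose, 3 fell and the median was 0.14. The calls of mtl-1, ctl-2 and icl-1 were lost there, and that of mtl-1 also in libraries 1 to 3.

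Genes repressed by DAF-16 (class II) did not move one way, with 4 of 20 higher and 5 lower. The insulin-like gene ins-7, an agonist of DAF-2 that DAF-16 represses, rose to 16.18 to 32.1 CPM at day 11 (median 25.3), against 3.1 to 7.12 CPM at day 6 (median 4.45) (log2 fold change 2.41 ± 0.300 (SE), adjusted p = 3.17e-07). The acid ceramidase gene asah-1 rose by 1.77, whereas dod-17 and the gut acid phosphatase gene pho-1 fell by 2.86 and 2.28 on the log2 scale. Of 30 tested insulin-like peptide genes, 3 rose and 5 fell. Of 24 components of the pathway itself 7 rose and 1 fell, with a median of -0.05. The transcript of daf-16, the gene deleted in the CF1038 strain of the series, had 187 to 210.3 CPM at day 11 (median 204), against 144 to 184 CPM at day 6 (median 160.5) (log2 fold change 0.32 ± 0.0754 (SE), adjusted p = 0.00116), and the ages did not overlap. The kinase gene akt-2 rose by 0.70, and the receptor gene daf-2, named after its values were seen, by 0.51 on the log2 scale. With libraries 4 to 6 alone the calls of daf-16 and daf-2 were lost, and 2 components rose and 0 fell.

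Genes of mitochondrial protein synthesis had the highest share of falls among the 58 lists. Of the 70 tested genes for mitochondrial ribosomal proteins, 65 fell and 0 rose, with a median log2 fold change of -0.59, while 19.9% of all tested genes fell. Their summed level was 1864 to 2103 CPM at day 11 (median 1992), against 2730.2 to 3211 CPM at day 6 (median 2984), and the ages were far apart. The large-subunit gene mrpl-9 had 50.6 to 60.3 CPM at day 11 (median 55.1), against 91.1 to 109 CPM at day 6 (median 97.5) (log2 fold change -0.83 ± 0.0904 (SE), adjusted p = 2.15e-08). The gene mrpl-36 fell by 0.90 on the log2 scale, and mrpl-12 and the small-subunit gene mrps-17 each fell by 0.75 on the log2 scale. The members are short, and short genes as a class were shifted: when the protein-coding genes were cut into 5 equal classes by exon length, the median log2 fold change ran from -0.03 in the shortest to 0.10 in the longest class, with 25.5% and 10.6% of genes lower. For each library, the log2 deviation from the mean of the 12 libraries was taken as a median over the genes of each class. The longest minus the shortest class was -0.00934 to 0.132 at day 11 and -0.305 to 0.141 at day 6. At day 6 libraries 4 and 6 were positive and the other 4 negative. The 37 mitochondrial ribosomal genes in the shortest class had a median of -0.60, against -0.03 for that whole class. In libraries 4 to 6 of each age 56 fell, and against the second day 6 set 66 did.

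The respiratory chain moved the same way. Of 55 nuclear genes for its subunits, 37 fell and 1 rose (median -0.34). The exception was cyc-2.2, a second cytochrome c gene, named after its values were seen. The complex I subunit gene nduf-7 had 91.4 to 110 CPM at day 11 (median 95.2), against 136 to 159 CPM at day 6 (median 147) (log2 fold change -0.60 ± 0.0841 (SE), adjusted p = 1.51e-06), and lpd-5, nuo-6 and nuo-4 of the same complex had log2 fold changes of -0.66, -0.63 and -0.54. The summed level of the list was 6755 to 7757 CPM at day 11 (median 7383), against 8563 to 9571 CPM at day 6 (median 9121). Of the 12 protein genes on mitochondrial DNA, 5 fell and 0 rose (median -0.53). Here the libraries overlapped: COX1, the catalytic subunit of cytochrome oxidase, had 1311 to 2109 CPM at day 11 (median 1585), against 2059 to 3165 CPM at day 6 (median 2249.6), and CYTB had 320 to 543 CPM at day 11 (median 392), against 531 to 843 CPM at day 6 (median 618). In libraries 4 to 6 alone, 22 nuclear and 2 mitochondrial genes fell, and the calls of COX2, CYTB and ND1 were lost.

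Other mitochondrial genes changed in part. The pyruvate dehydrogenase subunit genes pdhb-1 and dld-1 fell by 0.67 and 0.52 on the log2 scale, and the glycolytic gene pyk-1, for pyruvate kinase, rose by 0.31. Over glycolysis, gluconeogenesis and the citric acid cycle 9 of 46 genes rose and 12 fell. Mitochondrial chaperones and proteases had 2 rises and 5 falls among 14. The matrix protease genes lonp-1 and clpp-1 were among the falls, at -0.40 and -0.48, and dve-1, a factor of the mitochondrial unfolded protein response, was among the rises, at 0.53, a call that was lost against the second day 6 set. In the antioxidant list 6 of 35 rose and 10 fell. The methionine sulfoxide reductase gene msra-1 had 9.0 to 12 CPM at day 11 (median 11), against 15.3 to 29.8 CPM at day 6 (median 21.9), and sod-2, for a mitochondrial superoxide dismutase and named after its values were seen, had 56.4 to 62.3 CPM at day 11 (median 59.1), against 77 to 85.4 CPM at day 6 (median 79.8).

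**Figure D3:**
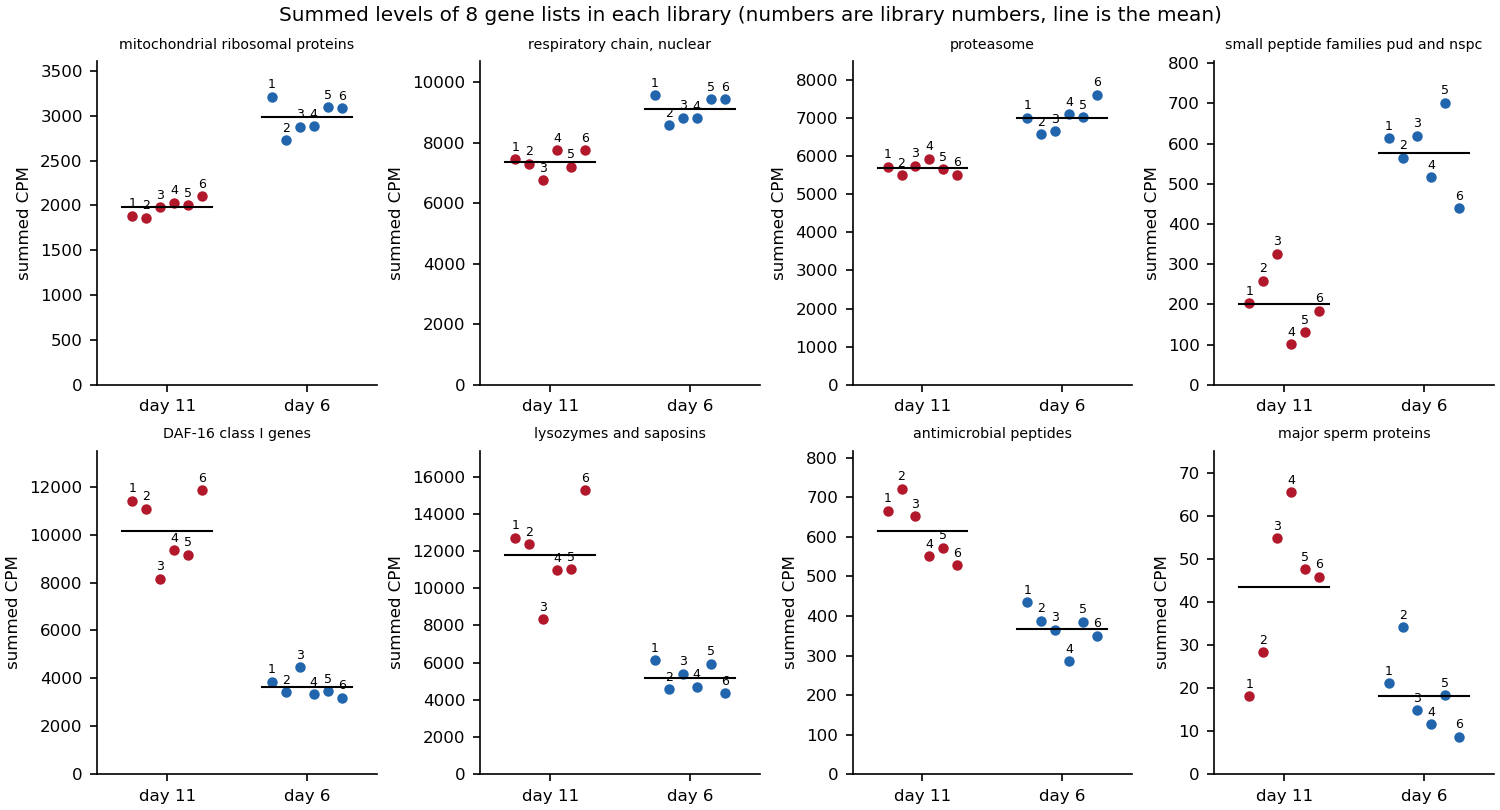
Summed CPM of all members of 8 gene lists in each library, with day 11 (red) left of day 6 (blue), library numbers above the points and a line at the mean. Mitochondrial ribosomal proteins, the nuclear respiratory chain, the proteasome and the pud and nspc peptides were lower in every day 11 library. DAF-16 class I genes, lysozymes and antimicrobial peptides were higher in every one, and major sperm proteins overlapped. The gene lys-7 counts in both the class I and the lysozyme sums.

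Of the proteasome, which degrades ubiquitin-tagged proteins, 26 of 33 subunit genes fell, 0 rose, and all 33 had a negative log2 fold change, with a median of -0.28. The core subunit gene pas-4 had 121 to 130.2 CPM at day 11 (median 122), against 159 to 192 CPM at day 6 (median 171) (log2 fold change -0.48 ± 0.0688 (SE), adjusted p = 1.92e-06). The core subunit gene pas-3 and the regulatory ATPase gene rpt-4 fell by 0.50 and 0.40 on the log2 scale. The lid subunit gene rpn-6.2 fell furthest, to 8.57 to 12.86 CPM at day 11 (median 11.6), against 21.1 to 28.7 CPM at day 6 (median 26.1). The sum over the list was 5497 to 5928 CPM at day 11 (median 5691), against 6580 to 7608 CPM at day 6 (median 7016). Against the second day 6 set 16 fell, and the median was -0.16.

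Autophagy genes, which deliver cell contents to the lysosome, were higher in part, with 13 of 31 rising, 3 falling and a median of 0.17. The receptor gene sqst-1, the worm p62, had 321 to 404 CPM at day 11 (median 351), against 177 to 205 CPM at day 6 (median 189) (log2 fold change 0.90 ± 0.0757 (SE), adjusted p = 2.19e-10). The gene hlh-30, the worm TFEB and a transcriptional activator of autophagy and lysosome genes, had 167 to 207 CPM at day 11 (median 174), against 82.4 to 97.7 CPM at day 6 (median 91) (log2 fold change 1.01 ± 0.126 (SE), adjusted p = 2.23e-07). The kinase gene unc-51 and its partner epg-9 rose by 0.77 and 0.79 on the log2 scale. The libraries of the ages did not overlap for any of these 4 genes, which were chosen for a small adjusted p. In libraries 1 to 3, 11 rose and 8 fell, in libraries 4 to 6, 4 and 1, and against the second day 6 set, 11 and 6. Of 39 lysosomal and gut protease genes, 10 rose and 5 fell, near the background of 24.1% for rises. The aspartyl protease gene asp-6 had 3079.5 to 5284 CPM at day 11 (median 4309.9), against 1565 to 2400 CPM at day 6 (median 2098). A second one, asp-1, had 1374 to 2813 CPM at day 11 (median 2458), against 893 to 1368 CPM at day 6 (median 1136), while asp-14 fell by 2.14 on the log2 scale.

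Cytosolic chaperones fell more than they rose, with 13 of 25 lower and 1 higher. The prefoldin subunit genes pfd-4, pfd-5 and pfd-6, which hand unfolded actin and tubulin to the chaperonin, had log2 fold changes of -0.67, -0.63 and -0.66. The riser was the stress-inducible hsp-70, with 5.88 to 46.4 CPM at day 11 (median 17.6), against 3.18 to 5.15 CPM at day 6 (median 4.28). The list for chaperones of the endoplasmic reticulum, which also holds the cytosolic hsp-70, had 8 rises and 0 falls among 23. In that list hsp-70 was the only rise of at least 2-fold. The thiol reductase gene dnj-27 and the HSP90 family gene enpl-1 rose by 0.57 and 0.38. Only 2 of these chaperones rose in libraries 4 to 6, and the call of enpl-1 was lost. Of 13 small heat shock genes 4 rose. They included hsp-43, with 222 to 276 CPM at day 11 (median 235.2), against 86.5 to 188 CPM at day 6 (median 125), and hsp-16.1, with 34.3 to 133 CPM at day 11 (median 69.3), against 32.5 to 40.1 CPM at day 6 (median 37.5), which shares reads with a near-identical copy. In libraries 4 to 6 only 1 rose, and against the second day 6 set 1 of 14 rose and 4 fell. The log2 fold change of hsp-16.1 there was -0.12, against 1.01 with the time-course libraries.

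The machinery that makes proteins changed unevenly. Of 80 cytosolic ribosomal protein genes only 4 rose and 12 fell, with a median of -0.04, both shares under the background. With the second day 6 set as control 19 rose and 10 fell, and in libraries 4 to 6 0 and 1. The named members were rps-6 at 0.45, rps-15 at -0.52 and the germline paralogue rpl-11.1 at -0.63. Translation factors fell in 20 of 41 cases and rose in 4. Their summed level was nonetheless 25645 to 29957 CPM at day 11 (median 28340), against 22556 to 27959 CPM at day 6 (median 25066), with overlap. The 4 that rose were the elongation factor genes eef-1A.1, eef-1A.2 and eef-2 and the initiation factor gene iff-2. Of these, iff-2 was named after its values were seen. The gene eef-2, for the factor that moves the ribosome along, had 5068 to 6105 CPM at day 11 (median 5898), against 3368 to 4740.4 CPM at day 6 (median 4019) (log2 fold change 0.54 ± 0.0767 (SE), adjusted p = 1.86e-06). In contrast, the initiation factor subunit gene eif-3.I had 107 to 128 CPM at day 11 (median 121), against 166 to 189.7 CPM at day 6 (median 171). Splicing factors fell in 29 of 54 cases and rose in 0 (median -0.27), with the core snRNP gene snr-2 at 145 to 204 CPM at day 11 (median 180.7), against 272 to 318 CPM at day 6 (median 299.7). Nucleolar and ribosome biogenesis genes had 12 falls and 3 rises among 24, with nol-58 and nol-56, of the small nucleolar particles, at -0.43 and -0.34. The genes eef-1A.1 and eef-1A.2 are near-identical, so RSEM may split their reads. In libraries 4 to 6 the falls were 7 translation factors, 15 splicing factors and 3 nucleolar genes, against 24, 36 and 12 in libraries 1 to 3. The calls of eef-1A.1, rps-6, rpl-11.1 and nol-56 were lost in libraries 4 to 6.

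Cuticle collagens supplied most of the largest falls. Of 177 collagen genes 154 were tested, 73 fell, 20 rose and the median was -0.56. The gene dpy-13, whose loss makes short fat worms, had 0.35 to 1.19 CPM at day 11 (median 0.771), against 5.37 to 26.9 CPM at day 6 (median 10.4) (log2 fold change -4.10 ± 0.348 (SE), adjusted p = 2.93e-10). The collagen genes col-17, dpy-5, dpy-4 and rol-6 had log2 fold changes of -5.65, -4.10, -3.03 and -4.74. The genes col-92, col-10 and col-167 had log2 fold changes of -4.07, -3.14 and -2.72. For col-117 it was -3.77 ± 1.02 (SE, adjusted p = 0.00407), a call that was lost both in libraries 1 to 3 and in libraries 4 to 6. Both of the following genes were already low at day 8: dpy-13 averaged 12.8, 1.07, 0.74, 0.936 and 0.373 CPM at days 6, 8, 11, 14 and 18, and col-147 averaged 22, 1.07, 0.772, 0.41 and 0.299 CPM. A few collagens went the other way. The gene col-183 (chromosome X, 13466643 to 13467764) had 284 to 529 CPM at day 11 (median 363), against 5.23 to 27 CPM at day 6 (median 9.83), the largest fold rise among collagens (log2 fold change 4.90 ± 0.35 (SE), adjusted p = 3.16e-11). The collagen gene col-143 had 3206 to 4684 CPM at day 11 (median 4346), against 1243 to 2739 CPM at day 6 (median 2134), and col-181, named after its values were seen, rose by 1.19 on the log2 scale. The summed level of all collagens was 25869 to 36297 CPM at day 11 (median 30123), against 19530 to 28453 CPM at day 6 (median 24237), with overlap between the ages. Against the second day 6 set the median of the list was -1.04.

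Basement membrane genes, for the sheets that underlie tissues, had 8 rises and 1 fall among 20 (median 0.35). The papilin gene mig-6 had 223 to 370 CPM at day 11 (median 266), against 90.6 to 221 CPM at day 6 (median 143), and pxn-1, the peroxidasin that crosslinks collagen IV, had 32.1 to 43.2 CPM at day 11 (median 38.5), against 13.8 to 30.5 CPM at day 6 (median 22.3). The hemicentin gene him-4 rose by 0.90 and the dystroglycan gene dgn-1 by 0.55 on the log2 scale. The counts differed between the subsets: 13 genes rose in libraries 1 to 3 and 1 in libraries 4 to 6, where the calls of mig-6, pxn-1 and him-4 were lost.

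Reproductive genes moved by stage. The yolk protein genes are near-identical within pairs, so RSEM may split their reads. The gene vit-4 had 475 to 874 CPM at day 11 (median 665), against 793 to 2114 CPM at day 6 (median 1991). The gene vit-3 had 513 to 899.5 CPM at day 11 (median 689), against 779 to 1835 CPM at day 6 (median 1671). Both fell, with log2 fold changes of -1.43 and -1.13, and day 6 library 3, the lowest of its age, reached into the day 11 range. The gene vit-5 averaged 18770 ± 3019 CPM at day 11 and 12802 ± 2576 CPM at day 6 (SD, n = 6 each), and its adjusted p was 0.0477. That call was lost in 12 alternative settings, most of them leaving out a single library. Named after their values were seen, vit-1, vit-2 and vit-6 did not pass, with log2 fold changes of -0.13, -0.15 and -0.20. Of 23 oocyte and eggshell genes 1 was called higher and 2 lower (median -0.09). The counts were 7 higher and 1 lower against the second day 6 set (median 0.18). Among them cpg-3, for an eggshell proteoglycan, had 287 to 389 CPM at day 11 (median 341), against 489 to 551 CPM at day 6 (median 513).

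Germline genes fell modestly, with 15 of 38 lower, 0 higher and a median of -0.25. The P granule gene pgl-3 and the chromosome-pairing genes zim-3 and him-8 had log2 fold changes of -0.51, -0.70 and -0.47. Of 33 replication and cell cycle genes 5 fell and 0 rose, a share of falls under the background of 19.9%, with air-2, the Aurora B kinase gene, at -0.53. Leaving out single libraries gave 1 to 4 falls, and against the second day 6 set 6 rose and 12 fell. Genes first transcribed in the embryo fell more: 13 of 22 were lower and 1 higher (median -0.73). The mesodermal factor gene hnd-1 had 2.23 to 2.98 CPM at day 11 (median 2.47), against 4.17 to 9.28 CPM at day 6 (median 6.21), and the riser was the endoderm factor gene end-3, at 1.13. The falls numbered 16 in libraries 1 to 3 and 5 in libraries 4 to 6.

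Sperm genes rose from low levels. Major sperm proteins, the cytoskeleton of crawling sperm, are encoded by many near-identical genes whose reads RSEM shares out, so the sum is the firmer value. It was 18.1 to 65.5 CPM at day 11 (median 46.7), against 8.72 to 34.2 CPM at day 6 (median 16.6), and the ages overlapped, since day 11 libraries 1 and 2 lay within the day 6 range. Of 28 tested genes 25 rose (median 1.36), but 2 in libraries 1 to 3 and 26 in libraries 4 to 6. Other sperm genes were 48 higher and 0 lower among 80 (median 1.05), with 33 higher in libraries 1 to 3 and 50 in libraries 4 to 6. The gene fog-3, which commits germ cells to sperm, had 3.77 to 7.68 CPM at day 11 (median 5.15), against 0.558 to 1.09 CPM at day 6 (median 0.92) (log2 fold change 2.59 ± 0.229 (SE), adjusted p = 6.49e-10). The sperm gene spe-11 had 2.95 to 7.34 CPM at day 11 (median 4.49), against 0.546 to 1.35 CPM at day 6 (median 0.843), and smz-2 had 4.8 to 5.44 CPM at day 11 (median 5.23), against 1.39 to 1.84 CPM at day 6 (median 1.61). The Argonaute genes alg-4 and alg-3, which act in sperm formation, rose by 2.15 and 1.83 on the log2 scale. The ages did not overlap for these 5 genes, but they were chosen for a small adjusted p, which favours that outcome. Over all tested genes the ages did not overlap for 29.2%.

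The largest median fall belonged to the pud and nspc genes, small nematode-specific peptide families. Of 23 tested 20 fell and 0 rose, with a median of -1.41. The gene nspc-15 had 11.9 to 34.4 CPM at day 11 (median 25.1), against 65.1 to 96.7 CPM at day 6 (median 80), and nspc-17 had 0.657 to 2.31 CPM at day 11 (median 1.32), against 7.77 to 13.5 CPM at day 6 (median 10.5) (log2 fold change -2.95 ± 0.300 (SE), adjusted p = 6.00e-09). The summed level was 102 to 326 CPM at day 11 (median 194), against 440.2 to 702 CPM at day 6 (median 589). A further large fall outside the lists was that of vmo-1, with 1.31 to 3.53 CPM at day 11 (median 2.47), against 11.1 to 29.7 CPM at day 6 (median 16.6).

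Fat metabolism changed enzyme by enzyme. Desaturases and elongases had 8 rises and 8 falls among 32. The stearoyl-CoA desaturase gene fat-7 fell to 7.17 to 11.1 CPM at day 11 (median 7.72), against 36.8 to 92.8 CPM at day 6 (median 54) (log2 fold change -2.86 ± 0.506 (SE), adjusted p = 5.48e-05). The delta-6 desaturase gene fat-3, of the polyunsaturated fatty acid pathway, rose to 283 to 419.7 CPM at day 11 (median 374), against 81.2 to 125.9 CPM at day 6 (median 92.6) (log2 fold change 1.91 ± 0.154 (SE), adjusted p = 1.17e-10). The delta-12 desaturase gene fat-2, which acts before fat-3 in that pathway and was named after its values were seen, had 456 to 749 CPM at day 11 (median 537), against 826 to 1070.2 CPM at day 6 (median 908). For none of the 3, all named for their change, did the ages overlap, although the call of fat-2 was lost in libraries 4 to 6. The lysosomal lipase gene lipl-1, a target of HLH-30, had 46.4 to 87 CPM at day 11 (median 57.1), against 4.53 to 18.9 CPM at day 6 (median 5.5), and its highest day 6 value was in library 3. The carnitine palmitoyltransferase gene cpt-4 rose by 2.37, while the fatty acid binding protein gene lbp-7 fell by 2.16 on the log2 scale. Over lipases and fatty acid oxidation the counts were 29 higher and 20 lower of 93. The acid sphingomyelinase gene asm-3 had 7.6 to 37.2 CPM at day 11 (median 20.1), against 1.06 to 1.98 CPM at day 6 (median 1.56).

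Detoxification families had both rises and falls, and most had no more calls than the 43.9% over all tested genes. The share called was 41.2% for cytochromes P450, 38.1% for glucuronosyltransferases and 31% for glutathione S-transferases. For short-chain dehydrogenases it was 60%. Cytochromes P450, which oxidise foreign compounds and lipids, had 11 rises and 17 falls among 68, led by cyp-14A5 with 577 to 832 CPM at day 11 (median 733), against 101 to 159 CPM at day 6 (median 128) (log2 fold change 2.48 ± 0.181 (SE), adjusted p = 1.79e-11). Although its median member was slightly lower (-0.18), the family's summed level was 1214 to 1521 CPM at day 11 (median 1340.2), against 764 to 856 CPM at day 6 (median 832). By medians, the gain of cyp-14A5 alone was larger than the gain of this sum. The glucuronosyltransferases had 13 rises and 11 falls among 63, among them ugt-31 at 2.24 and ugt-43 at -3.20. Glutathione S-transferases had 6 and 7 among 42, with gst-27 at -1.18 and gsto-3 at 0.93. Short-chain dehydrogenases had 9 rises and 9 falls among 30, with dhs-26 at 3.47 and dhs-4 at -1.72.

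In the list of neuronal genes 22 of 49 rose and 1 fell (median 0.41). Related lists rose less, against a background of 24.1% for rises. Of flp neuropeptide genes 4 of 30 rose and 1 fell (median 0.02). Of nlp neuropeptide genes 17 of 68 rose and 9 fell (median 0.10), and of sensory cilium genes 4 of 40 rose and 2 fell (median 0.13). The rabphilin gene rbf-1, of synaptic vesicles, had 10.3 to 16.9 CPM at day 11 (median 14.3), against 6.5 to 8.88 CPM at day 6 (median 8.1), and the active-zone gene elks-1 had 71.1 to 92.1 CPM at day 11 (median 83), against 51.6 to 65.8 CPM at day 6 (median 56.1). The call of rbf-1 was lost against the second day 6 set. In libraries 1 to 3, 35 neuronal genes rose (median 0.64), and in libraries 4 to 6, 7 (median 0.12). The summed neuronal level was 1911 ± 68.5 CPM at day 11 and 1386 ± 70.7 CPM at day 6 in libraries 1 to 3, and 1605 ± 22.2 CPM at day 11 and 1501 ± 89.9 CPM at day 6 in libraries 4 to 6 (SD, n = 3 each). Most neuronal genes are long, and the 25 in the longest length class had a median of 0.44, against 0.10 for that class.

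Of 46 muscle genes 2 were called higher and 12 lower (median -0.12), where the background was 24.1% and 19.9%. The 22 in the longest length class had a median of 0.09, against 0.10 for that class. The troponin T gene tnt-2, of the contractile filament, had 62.1 to 115 CPM at day 11 (median 78.1), against 147 to 238 CPM at day 6 (median 203) (log2 fold change -1.24 ± 0.223 (SE), adjusted p = 6.06e-05), while mlc-2, for a light chain of muscle myosin, had 134 to 229 CPM at day 11 (median 165), against 263 to 368 CPM at day 6 (median 304). In libraries 1 to 3, 11 muscle genes rose and 8 fell, and in libraries 4 to 6, 0 rose and 18 fell. The summed muscle level was 7969.5 ± 1013 CPM at day 11 and 8025 ± 1173 CPM at day 6 in libraries 1 to 3, and 6446 ± 258 CPM at day 11 and 9149.8 ± 804 CPM at day 6 in libraries 4 to 6 (SD, n = 3 each). Intestinal markers had 4 rises and 5 falls among 29, pharyngeal markers 3 and 7 among 22, and hypodermal and seam markers 7 and 10 among 28. With single libraries left out the intestinal rises numbered 1 to 3. With the second day 6 set as control they numbered 11, and the pharyngeal and hypodermal falls 14 and 19. Within the intestinal list ifc-1, for an intermediate filament, had 3.98 to 7.76 CPM at day 11 (median 5.24), against 18.1 to 23.5 CPM at day 6 (median 19.9). Germline genes summed to 4803 ± 440.5 CPM at day 11 and 6262 ± 154 CPM at day 6 in libraries 1 to 3, and 5570.3 ± 220.3 CPM at day 11 and 6723 ± 233 CPM at day 6 in libraries 4 to 6 (SD, n = 3 each). The part of these marker levels in the other results was not tested.

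**Figure D4:**
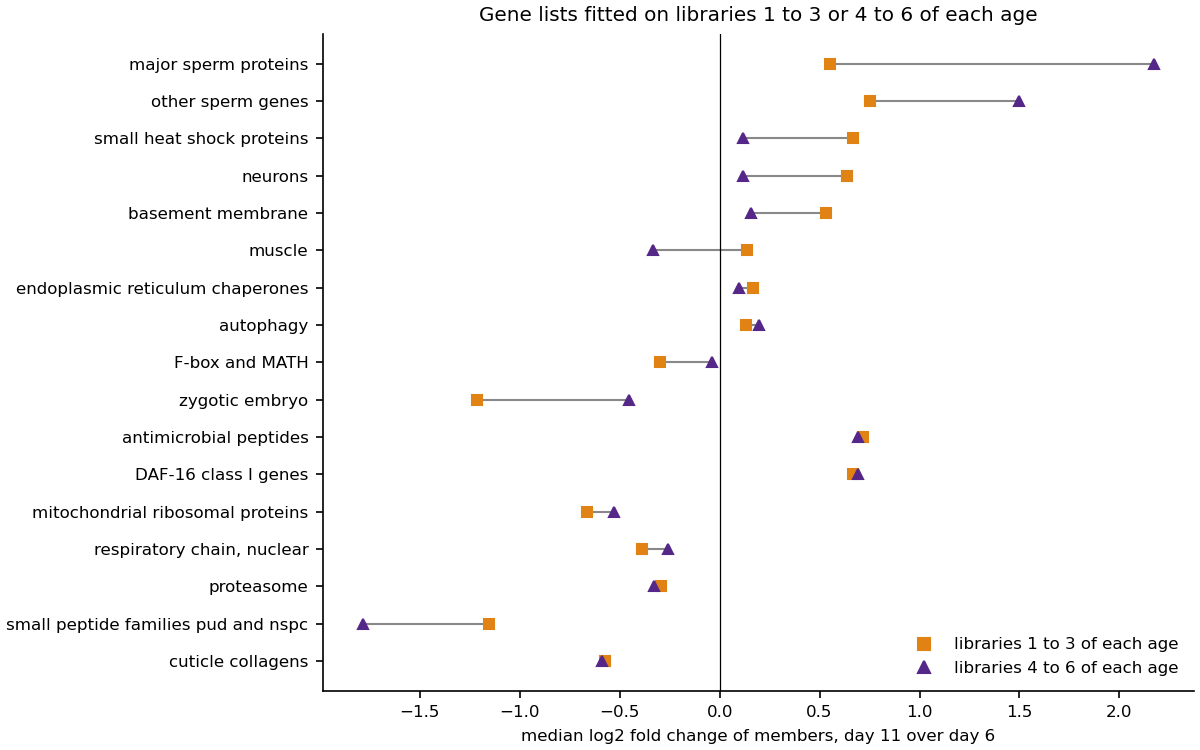
Median log2 fold change, day 11 over day 6, of the members of 17 gene lists fitted on libraries 1 to 3 (squares) or 4 to 6 (triangles) of each age. Major sperm proteins (0.55 and 2.17) and neurons (0.64 and 0.12) lay far apart, muscle (0.13 and -0.33) lay on opposite sides of 0, and the proteasome, DAF-16 class I and collagen lists lay close together.

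Levels at the other ages place day 11 in the course of ageing, as a description with no test. Of the 4020 genes higher at day 11, 1140 had their highest mean of the 5 ages at day 11, 1353 at day 14 and 1462 at day 18. Of the 3318 genes lower at day 11, 849 had their lowest mean at day 11, 1405 at day 14 and 949 at day 18. Among the 15 genes with the largest rises, 5 had their highest mean at day 11, 9 at day 14 and 1 at day 18. The gene thn-2 averaged 88.7, 55.9, 787, 556 and 148 CPM at days 6, 8, 11, 14 and 18, and dod-3 averaged 7.06, 7.93, 150.5, 94.3 and 27.8 CPM, so both were highest at day 11. The gene lys-7 averaged 556, 1264, 5979, 8767 and 3383 CPM, and spp-9 averaged 0.136, 0.299, 11.8, 111 and 73.4 CPM, both highest at day 14 by these means over 6 libraries. Over libraries 1 to 3, the mean lysozyme and saposin sum, which includes lys-7, went from 11140 CPM at day 11 to 18955 at day 14. Over libraries 4 to 6 it went from 12422 down to 10241, while the class I sum, also with lys-7, went from 10119 to 10546. Peak ages of single genes were not tested for each set of libraries. Major sperm proteins had sums of 18.2, 6.77, 43.4, 379.6 and 1266 CPM, with day 11 far below day 18. The mitochondrial ribosomal sum was 2980.4, 2562, 1978, 1997 and 2557 CPM, and the proteasome sum was 6995, 6744, 5678, 5538 and 6641 CPM. At day 14 the libraries divided, with 1798 ± 109.9 CPM of the first sum in libraries 1 to 3, while libraries 4 to 6 held 2196 ± 209 CPM (SD, n = 3 each). The proteasome sum there was 4760.3 ± 476 CPM and 6316 ± 606 CPM, so neither sum had a lowest age common to both sets of libraries.

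**Figure D5:**
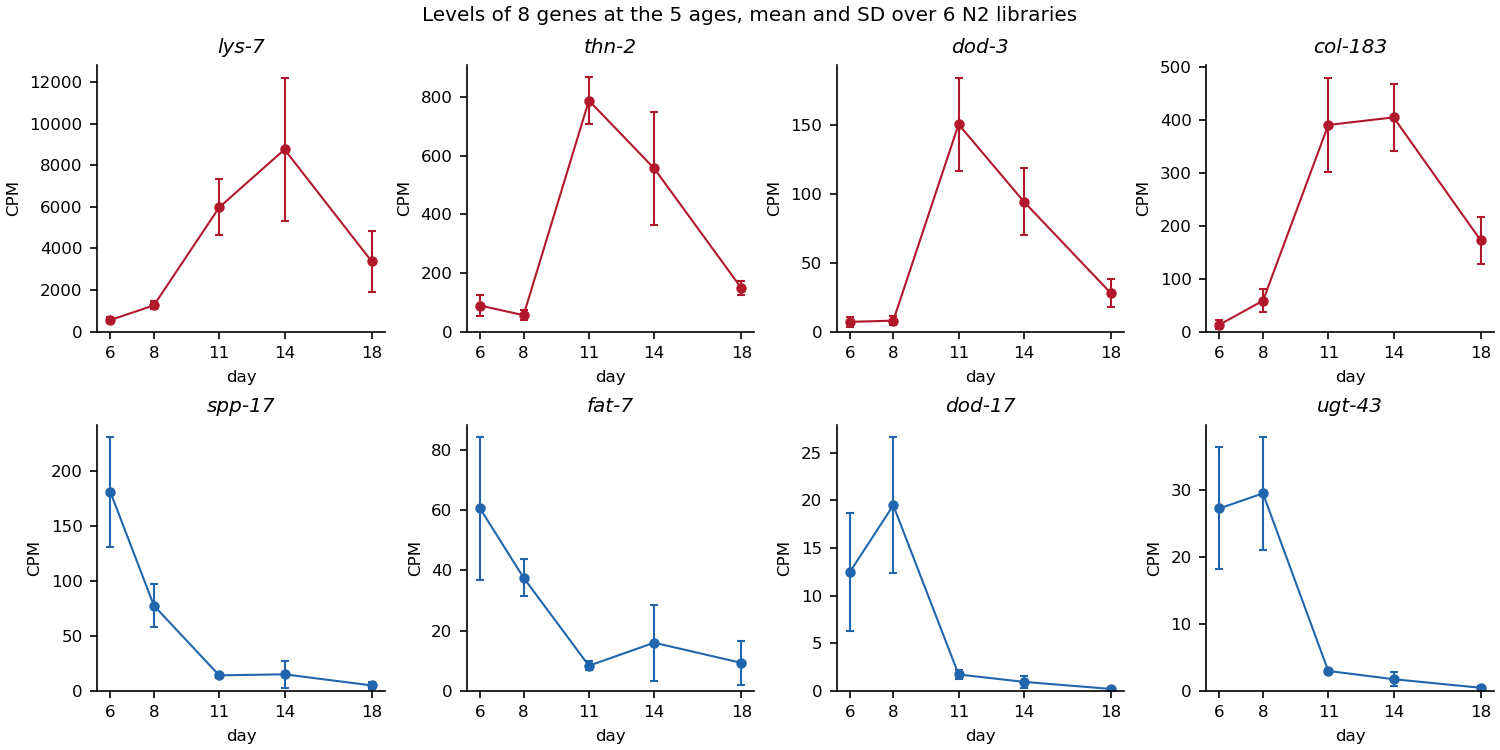
Mean CPM with SD over 6 N2 libraries at days 6, 8, 11, 14 and 18 for 4 genes higher (red) and 4 genes lower (blue) at day 11 than at day 6. By these means, the genes thn-2 and dod-3 are highest at day 11 and lys-7 and col-183 at day 14, while fat-7 is lowest at day 11.

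Comparisons of later ages with day 8 use none of the 12 libraries and so show the direction of the day 11 calls in other libraries. Of the 4020 genes higher at day 11, 2633 (65.5%) were also called higher at day 14 against day 8 and 46 lower, while 25.3% of all tested genes were called higher and 20.1% lower there. Of the 3318 genes lower at day 11, 1827 (55.1%) were called lower and 48 higher. At day 18 against day 8 the shares were smaller. Of the genes higher at day 11, 1997 (49.7%) were higher and 494 lower, against 28.4% and 25.1% of all tested genes. Of those lower at day 11, 1357 (40.9%) were lower and 364 higher. The mitochondrial ribosomal list had 0 higher and 49 lower, with a median log2 fold change of -0.35 at day 14 against day 8, and 14 higher and 12 lower at day 18 against day 8. DAF-16 class I genes had 14 higher and 0 lower, with a median log2 fold change of 0.86 at day 14, and 7 higher and 5 lower, with a median log2 fold change of 0.10 at day 18. Lysosomal and gut proteases had 13 higher and 9 lower, with a median log2 fold change of -0.11 at day 14, and 3 higher and 24 lower, with a median log2 fold change of -1.28 at day 18.

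By chromosome, the share of tested genes that rose was 26.8% on V, 26.2% on IV and 21.1% on II. The share that fell was 21.9% on III and 17.9% on V, and on X 392 of 2306 fell. Of 14 tested mitochondrial genes 5 fell and 0 rose. Of 688 tested pseudogenes 150 rose (21.8%) and 96 fell (14.0%), and of 51 long intergenic RNAs 11 rose (21.6%) and 2 fell (3.92%). The ribosomal RNA gene rrn-3.1 had 718 to 1363 CPM at day 11 (median 1029.8), against 831 to 5772 CPM at day 6 (median 2149), with overlap, and its call was lost in libraries 4 to 6. The spread between the libraries of an age was also compared. The root mean square deviation of a library from the mean of the others, in log2 CPM with a prior count of 2, was 0.417 ± 0.0387 at day 11 and 0.403 ± 0.0460 at day 6 (SD, n = 6 each). The difference was 0.0143, with p = 0.545 in an exact 2-sided permutation test.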

How the data were processed

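Whole-worm RNA was read from both ends at 150 nucleotides per read. Per the submitters' processing notes, FastQC, STAR 2.7.11b and RSEM 1.3.3 were used with the WBcel235 genome, and RSEM gives expected counts that share a read among genes it matches. Neither the annotation release nor the kit's strandedness is given in the sources used, so reads of overlapping genes on opposite strands may not be separated. The authors deposited expected counts per gene for 80 libraries, of which 2.73% of values were not whole, and these were rounded. Symbols came from the Ensembl annotation of WBcel235 for 44026 of 46904 gene IDs, and mitochondrial gene names from RefSeq.

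All 30 time-course libraries were fitted with 1 coefficient per age in edgeR 4.0.16 (filterByExpr, TMM, robust quasi-likelihood F test, 2-sided), and a gene was called when its p, adjusted by Benjamini and Hochberg's method, was under 0.05. CPM are TMM-scaled, and the standard error is the absolute log2 fold change over the square root of F. Lists were described by counts and medians only. The genes, lists and alternatives were chosen with earlier results of these data known. The text names, per direction, the 15 called genes with the largest fold change, a standard symbol, at least 10 CPM in the higher age and at least 5 of 6 libraries on their own side. It also names the 6 with the largest change in CPM, daf-16, and some of the up to 4 members per list with the smallest adjusted p, and says where another gene was named after its values were seen. Alternatives used DESeq2 1.42.0, other scalings, filters, controls and library subsets. R 4.3.3, limma 3.58.1, Python 3.11.15, scipy 1.17.1 and matplotlib 3.10.9 were also used.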

Additional observations from a re-analysis of the deposited data

Results flagged for a closer look

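In 9 of 202 groups of 6 libraries tested, the highest or lowest library stood apart from the other 5 by Dixon's criterion, which flags about 1 in 20 groups by chance. Day 6 library 3 accounts for 5 of the 9. It had 779 CPM of vit-3 and 793 CPM of vit-4, against 1626 to 1835 and 1927 to 2114 CPM in the other day 6 libraries, and 18.9 CPM of lipl-1, against 4.53 to 6.5 CPM. Its summed glutathione S-transferase level was 886 CPM, against 1154 to 1308 CPM in the other 5, and its summed autophagy level was 3134 CPM, against 2668 to 2756 CPM. At day 11, library 3 had 1.16 CPM of col-17, against 0.0261 to 0.162 CPM in the others. Day 11 library 6 had 19.1 CPM of spp-17, against 12.04 to 14.3 CPM. The summed replication and cell cycle level of day 11 library 2 was 6648 CPM, against 7087 to 7309 CPM. The summed level of the other sperm genes in day 11 library 4 was 484 CPM, against 404 to 431 CPM.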

How the results depend on the processing

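The number of genes called was 7338, and it was within 1.5 times of that with the 12 libraries alone (8285), RLE scaling (7288), no scaling (7189), no low-count filter (7205), DESeq2 (7553), libraries 1 to 3 (8126) and the second day 6 set as control (9572). Leaving out each library in turn gave 6495 to 7243 calls. Libraries 4 to 6 gave 4557 calls (2562 higher, 1995 lower), with 3 libraries per age, and a 2-fold minimum gave 2213 (1459 higher, 754 lower). Of the main calls, 79.6% were kept with the second day 6 set, where 7 higher calls became lower and 1 lower call became higher. In the settings other than that one, no call changed sign. Against that set the log2 fold changes of vit-1, vit-2 and vit-6 became 0.54, 0.37 and 0.33, those of hsp-16.1 and hsp-16.2 -0.12 and -0.50, and that of col-140 0.00, and in libraries 1 to 3 vit-1 was at 0.05. The cause was not tested.

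Library numbers gave no sign of pairing between days 11 and 6. Deviations of same-numbered libraries correlated at -0.218 to 0.096, and those of different numbers at -0.182 to 0.209. The correlations of the other ages were not checked. The fit with the replicate block gave 7515 calls, keeping 97.8% of the main ones. The difference in spread between the ages was -0.000196 with a prior count of 0.5 and ran from -0.00597 to 0.0362 when single libraries were left out, being negative without day 6 library 1 or 2. Genes under 1 CPM rest on the fewest counts, and how depth acts by level was not tested. The exon-length gradient differs between day 6 libraries.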

Other observations

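Several regulatory and receptor families are not described above. Nuclear hormone receptors, ligand-gated transcription factors that are numerous in nematodes, rose in 68 of 212 tested cases and fell in 22 (median 0.18). The gene nhr-243 had 18.4 to 22.8 CPM at day 11 (median 19.6), against 8.95 to 11.8 CPM at day 6 (median 9.99), and nhr-85, a worm relative of Rev-erb, had 10.1 to 13.8 CPM at day 11 (median 11.1), against 4.56 to 6.25 CPM at day 6 (median 5.3). Against the second day 6 set 57 of 223 rose and 58 fell. F-box and MATH genes, many of which encode adaptors of ubiquitin ligases, had 52 rises and 97 falls among 342. The falls numbered 136 in libraries 1 to 3 and 30 in libraries 4 to 6. The strongest riser among the named members, fbxa-165, had 4.51 to 6.35 CPM at day 11 (median 5.53), against 0.115 to 1.04 CPM at day 6 (median 0.306).

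Genes for transthyretin-like and fatty acid binding proteins, listed together, rose in 32 of 69 cases and fell in 12 (median 0.54). The gene far-6, of a family that binds fatty acids and retinol, had 171 to 403 CPM at day 11 (median 233), against 70.5 to 109.6 CPM at day 6 (median 87.4). Of 1308 chemoreceptor genes only 153 passed the count filter, 23 higher and 30 lower (median -0.06). With the second day 6 set as control 264 passed, 26 higher and 102 lower (median -0.56), and in libraries 4 to 6 15 of 145 were lower. The gene acd-1, for a degenerin channel subunit, had 4.02 to 13.9 CPM at day 11 (median 11.3), against 1.07 to 1.96 CPM at day 6 (median 1.42). Of 66 histone genes, many of them identical copies, 6 were called higher and 7 lower, and against the second day 6 set 9 and 18.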
